A study of Arabidopsis thaliana with 28 samples.

Results

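The genes described here encode 4 proteins of the light reactions of photosynthesis in Arabidopsis thaliana: PSAN (AT5G64040), PSBW (AT2G30570), PSBY (AT1G67740) and LHB1B2 (AT2G34420). They were chosen as genes of photosystem subunits and light-harvesting proteins whose probe is annotated to exactly 1 gene. Each has 1 such probe, so the account covers 4 of the 3439 probes on the array and 4 of the 691 genes with a probe of their own. Arrays of wild-type plants of ecotype Columbia-0 were made after growth on Murashige and Skoog (MS) medium, a mineral medium for plant culture, in 2 groups. In the first group the medium held 2% sucrose (14 arrays), and in the second it held none (14 arrays). The labels give total RNA as the material and name no organ, age, light regime or separate cultures.

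Photosystem II oxidises water and photosystem I passes the electrons on towards NADPH, and both sit in the thylakoid membrane of the chloroplast. Light-harvesting chlorophyll a/b proteins collect light and hand the energy to the photosystems. The 4 genes lie in the nucleus and their products are imported into the chloroplast. Sugars are known as signals that can lower the transcripts of nuclear photosynthesis genes, which is the question a comparison of these media bears on.

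For 26 of the 28 arrays the most correlated array over all probes was the consecutive one of the same group. Correlations between consecutive arrays ran from 0.903 to 0.989 when all 28 arrays were counted. Consecutive arrays were averaged into 7 sets per medium, and a set is counted as 1 sample below. Sucrose set 1 did not lie with its group. Its mean correlation was 0.80 with the other sucrose sets and 0.938 with the no-sucrose sets. No-sucrose sets 1 and 2 lay between the media, correlating on average at 0.871 and 0.864 with sets grown on sucrose and at 0.888 and 0.891 with the rest of their own group. Fold changes, ratios, parts of the variation and likenesses are therefore given with and without these 3 sets. Values are intensities in the array's own units, with a maximum of 81.5 to 100 per array, and 11.9 to 17.5% of probes were listed at 0 on an array. No member was at 0 on any array.

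PSBW was lower on sucrose and PSAN was higher, while the changes of PSBY and LHB1B2 did not pass the test. PSBW belongs to the small membrane subunits of photosystem II, and its signal was 2.87-fold lower in the plants on sucrose. PSAN, the subunit of photosystem I on the lumen side where plastocyanin docks, was 1.59-fold higher. So 1 member rose and 1 fell of 4, where 17.6% of all 3439 probes rose and 12.4% fell (30.0% in all). A count of 2 in 4 members is too small to be set apart from that background. The test was limma across all probes on quantile normalized log2 signals of the 7 sets per medium, with Benjamini-Hochberg adjustment and a threshold of 0.05. In RNA from bulk material, fewer cells that express a gene and less RNA per cell cannot be told apart.

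PSAN is an extrinsic subunit that helps photosystem I take electrons from plastocyanin. Its deposited intensity on the sucrose arrays had a lowest value of 4.26, a median of 5.86 and a highest value of 8.9. On the no-sucrose arrays the lowest value was 2.35, the median 3.99 and the highest 5.91. The ranges of the arrays overlapped, but every one of the 7 sucrose sets exceeded the mean without sucrose. On the log2 scale after normalization PSAN averaged 2.62 ± 0.32 on sucrose and 1.95 ± 0.32 without it (SD, n = 7 sets each). The log2 fold change was 0.67 ± 0.17 (SE), between 0.31 and 1.03 at 95% confidence, and limma gave an adjusted p = 0.0132. Only sucrose sets 1 and 7, with log2 signals of 2.095 and 2.34, fell below the highest no-sucrose set, no-sucrose set 3 at 2.46. Without the 3 sets that stood apart the log2 fold change was 0.72 (limma adjusted p = 0.00824). Centring each array by blocks of 48 spots ended the call, at a log2 fold change of 0.49 (limma adjusted p = 0.0863).

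PSBW, a low-molecular-mass subunit that takes part in the assembly of photosystem II with its antenna, had the larger change. On the sucrose arrays its deposited intensity had a lowest value of 6.49, a median of 11.6 and a highest value of 49.8. On the no-sucrose arrays the lowest value was 30.4, the median 34.6 and the highest 50.2. The high values on sucrose were the 2 arrays of set 1, at 45.3 and 49.8. The other 12 sucrose arrays lay between 6.49 and 13.9, all of them below the lowest no-sucrose array.

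After normalization PSBW averaged 3.74 ± 0.87 on sucrose and 5.26 ± 0.19 without it on the log2 scale (SD, n = 7 sets each). The log2 fold change was -1.52 ± 0.33 (SE), between -2.23 and -0.81 at 95% confidence, and limma gave an adjusted p = 0.00737. The sucrose group was the more spread, with set 1 at 5.60 and the remaining sucrose sets between 2.97 and 3.92. Without sucrose set 1 the log2 fold change was -1.83 (3.55-fold lower, limma adjusted p = 5.72e-06). Without all 3 sets that stood apart it was -1.89 (3.70-fold lower, limma adjusted p = 8.42e-06), and 48.2% of all probes were then called. These sets were left out because they lay away from their group in the same data, which favours larger folds by construction. In that comparison the PSBW sets of the media did not overlap, as was the case for 33.7% of all probes, whereas with every set kept they overlapped and 1.95% of all probes had no overlap. The position of PSBW within an array moved too. The probe lay between the 97.8th and the 99.8th percentile of the sucrose arrays and between the 99.6th and the 99.8th of the no-sucrose arrays.

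**Figure D1:**
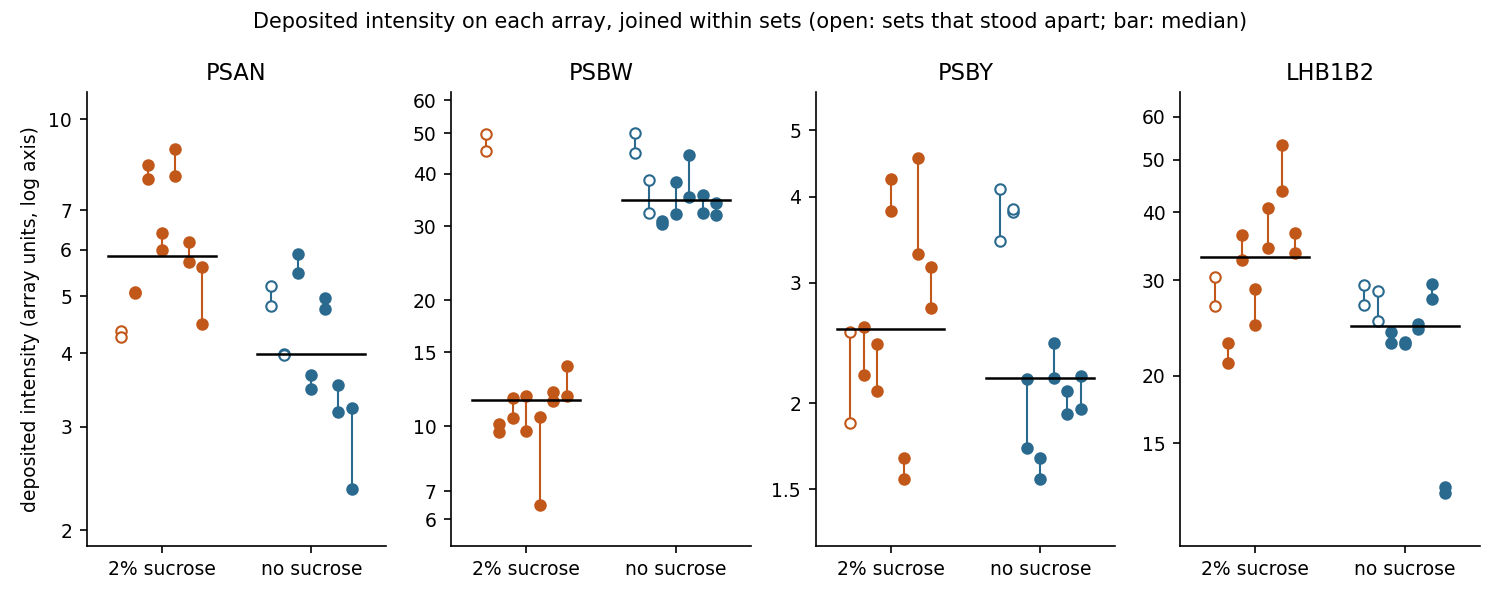
Deposited intensity (array units, log axis) of the 4 genes on each of the 28 arrays, sucrose left and no sucrose right in each panel. Lines join the 2 arrays of a set, open circles mark the 3 sets that stood apart and bars are medians. For PSBW, 12 sucrose arrays lie between 6.49 and 13.9, below all no-sucrose arrays, and the 2 arrays of sucrose set 1 lie at 45.3 and 49.8.

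PSBY is a photosystem II gene whose precursor is cut into a pair of small membrane proteins. Its deposited intensity on sucrose had a lowest value of 1.55, a median of 2.57 and a highest value of 4.55. Without sucrose the lowest value was 1.55, the median 2.18 and the highest 4.11. The groups covered almost the same range. The normalized log2 signal averaged 1.46 ± 0.55 on sucrose and 1.08 ± 0.39 without it (SD, n = 7 sets each). The log2 fold change of 0.38 ± 0.25 (SE) was not called (limma adjusted p = 0.268), and its 95% confidence interval ran from -0.16 to 0.92. Among the no-sucrose sets the highest were sets 1 and 2, which reached 1.60 and 1.63 on that scale, while the other 5 spanned 0.65 to 1.10. These are the no-sucrose sets that stood apart over all probes. Among the sucrose sets, set 4 was highest at 2.27 and set 5 lowest at 0.70. Without sucrose set 4 the log2 fold change was 0.246, and it was not called. Without the 3 sets that stood apart the log2 fold change was 0.65 (1.57-fold, limma adjusted p = 0.065). With arrays centred by blocks of 48 spots it was 0.93 and was called (limma adjusted p = 0.0155).

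LHB1B2 encodes a protein of the main light-harvesting complex of photosystem II, from the Lhcb1 family. On the sucrose arrays its deposited intensity had a lowest value of 21.1, a median of 33.1 and a highest value of 53.3. On the no-sucrose arrays the lowest value was 12.2, the median 24.6 and the highest 29.6. The normalized log2 signal averaged 4.95 ± 0.21 on sucrose and 4.60 ± 0.30 without it (SD, n = 7 sets each). The log2 fold change was 0.35 ± 0.13 (SE; 95% confidence interval from 0.06 to 0.64). It did not pass after adjustment over all probes (limma adjusted p = 0.0644), although each of the 7 sucrose sets exceeded the mean without sucrose. No-sucrose set 7 was lowest in its group, with a log2 signal of 4.0 where the rest of that group spanned 4.48 to 4.87. Without it the log2 fold change was 0.25 (limma adjusted p = 0.0917), and without the 3 sets that stood apart it was 0.375 (limma adjusted p = 0.0899). With arrays centred by blocks of 48 spots it was 0.17 (limma adjusted p = 0.389). Members of the Lhcb1 family are close in sequence, and the part of other members in the signal of this probe was not tested.

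Scaling moved the size of all 4 changes and the direction of none. The median deposited intensity over all probes differed by medium. For no-sucrose sets 3 to 7 it was at least 0.344 and at most 0.432. Sucrose sets 2 to 7 were dimmer, with medians from 0.163 up to 0.213. The sets that stood apart were the reverse: 0.339 for sucrose set 1, 0.182 for no-sucrose set 1 and 0.213 for no-sucrose set 2. Array level and medium thus went together outside these 3 sets, and their parts in the fold changes were not separated. With the values as deposited the log2 fold changes were 0.56 for PSAN, -1.45 for PSBW, 0.14 for PSBY and 0.48 for LHB1B2, while the median over all probes was -0.31. With each array centred on its median they were 1.18, -0.83, 0.77 and 1.10 in the same order of genes, and the median over all probes was 0.31. The calls of PSAN and PSBW held under both scalings. LHB1B2 was called only with median centring among these scalings (limma adjusted p = 0.0198). Over all probes the calls shifted from 605 higher and 428 lower after quantile normalization to 189 higher and 739 lower as deposited, and to 1076 higher and 433 lower with median centring.

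**Figure D2:**
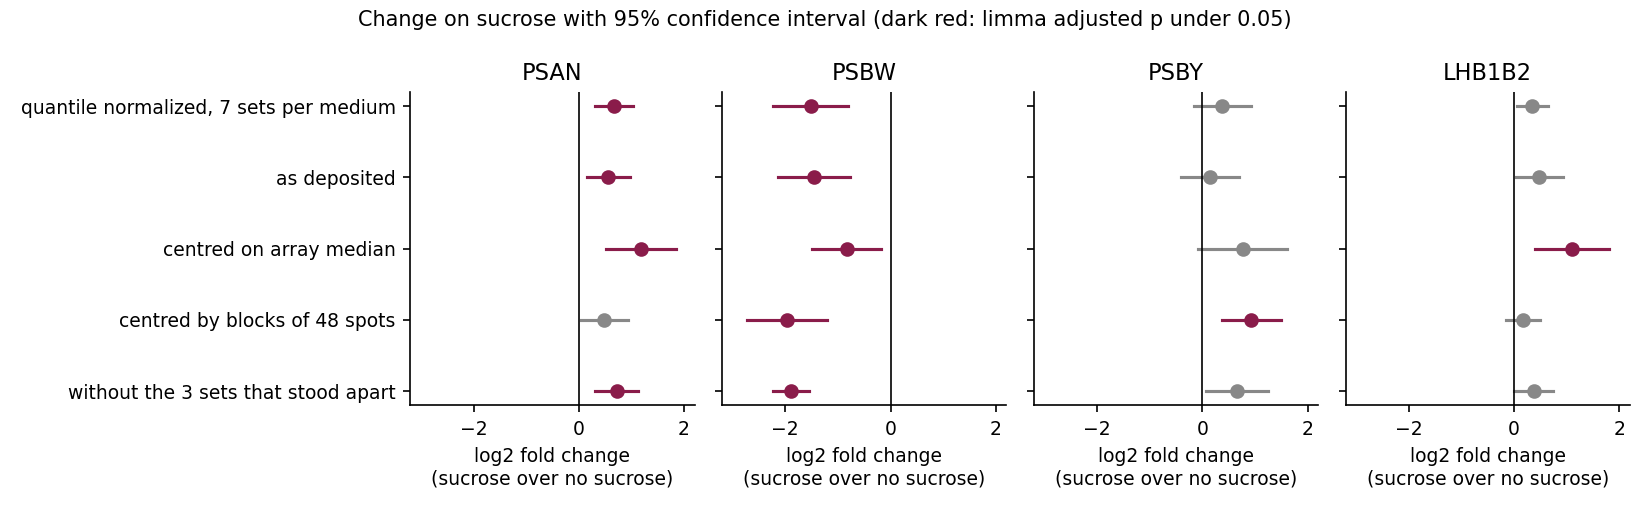
Log2 fold change of sucrose over no sucrose with its 95% confidence interval for each gene (x axis) under 5 ways of processing (y axis), dark red where the limma adjusted p is under 0.05. PSBW lies below 0 and is called in all 5, from -0.83 to -1.96, and PSAN lies above 0 in all 5 and is called in 4.

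All 4 probes were among the brightest 5% of the array, 172 probes ranked by mean normalized signal. In that group 29.7% of probes were called higher on sucrose and 16.3% lower (45.9% in all), and the median log2 fold change was 0.28, against 0.00 over all probes. The changes of PSBY and LHB1B2, at 0.38 and 0.35, were thus close to the median of these bright probes. A larger log2 fold change than that of PSAN was seen in 43 of the 172, and a lower one than that of PSBW in 18. The median of the 4 members was 0.37. Because probes differ in how well they bind their target, the brightness of one gene is not compared with that of another here.

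The genes were next set against each other on the same array, where any factor common to the array cancels. The ratio of PSBW to each of the others was lower on sucrose, and the ratios among PSAN, PSBY and LHB1B2 did not pass the test. For each of the 6 pairs the log2 ratio of deposited intensities was averaged by set, and the change between media was tested with a two-sided exact permutation test over all splits of the 14 sets into 7 and 7. The p-values were adjusted over the 6 pairs by the Benjamini-Hochberg method.

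The log2 ratio of PSAN to PSBW averaged -1.14 ± 1.12 on sucrose and -3.15 ± 0.36 without it (SD, n = 7 sets each). It was higher on sucrose by 2.01 ± 0.44 (SE), which is 4.04-fold (exact permutation p = 0.00408, adjusted p = 0.00816). Sucrose sets 2 to 7 lay between -1.35 and 0.03, above every no-sucrose set (-3.58 to -2.43). Sucrose set 1, at -3.46, lay inside the no-sucrose range. The deposited PSBW signal alone separated the same 6 sets. The change was 2.38 without the 3 sets that stood apart (exact permutation, adjusted p = 0.00866). With sucrose set 1 left out the media no longer overlapped, so the unadjusted p was the lowest this test can give. It is no further support.

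PSBW and PSBY are both subunits of photosystem II, and their ratio changed as well. The log2 ratio of PSBW to PSBY averaged 2.33 ± 0.997 on sucrose and 3.92 ± 0.39 without it (SD, n = 7 sets each), a change of -1.60 ± 0.41 (SE; exact permutation p = 0.00408, adjusted p = 0.00816). The log2 ratio of PSBW to LHB1B2 averaged -1.29 ± 0.97 on sucrose and 0.64 ± 0.39 without it (SD, n = 7 sets each), a change of -1.94 ± 0.39 (SE; exact permutation p = 0.0035, adjusted p = 0.00816). In both ratios 6 of the 7 sucrose sets lay below every no-sucrose set and set 1 did not. Counted by arrays, 12 of the 14 sucrose arrays lay below every no-sucrose array in both. The share of all probe pairs that separate like the PSBW ratios was not counted. Such separation is therefore not shown to be particular to PSBW. For single probes in normalized signal, 1.95% had no overlap with every set kept and 33.7% without the 3 sets that stood apart. Leaving out the 3 sets that stood apart gave changes of -2.15 for PSBW to PSBY and -2.30 for PSBW to LHB1B2 (exact permutation, adjusted p = 0.00866 for both). Here too the unadjusted p was the lowest possible once sucrose set 1 was left out.

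The other ratios showed how far the remaining genes could be told apart. The log2 ratio of PSAN to LHB1B2 averaged -2.43 ± 0.40 on sucrose and -2.51 ± 0.36 without it (SD, n = 7 sets each), a change of 0.08 ± 0.21 (SE; exact permutation p = 0.709). With quantile normalized values that change was 0.32 (exact permutation, adjusted p = 0.145). The ratio of PSAN to PSBY changed by 0.42 ± 0.32 (SE; exact permutation p = 0.223, adjusted p = 0.317). That of PSBY to LHB1B2 changed by -0.34 ± 0.29 (SE; exact permutation p = 0.265, adjusted p = 0.317), and its sign turned to 0.03 with quantile normalized values. Without sucrose set 5 the change of PSAN to PSBY was 0.22 and that of PSBY to LHB1B2 -0.18, and without no-sucrose set 7 the change of PSBY to LHB1B2 was -0.22. When the 3 sets that stood apart were left out, the changes were 0.24 for PSAN to PSBY, 0.08 for PSAN to LHB1B2 and -0.15 for PSBY to LHB1B2 (exact permutation, adjusted p = 0.714 for each). A difference between PSAN, which was called, and PSBY or LHB1B2, which were not, was therefore not shown. With errors of 0.21 to 0.32 on the log2 scale these ratios do not show that the 3 genes changed alike.

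**Figure D3:**
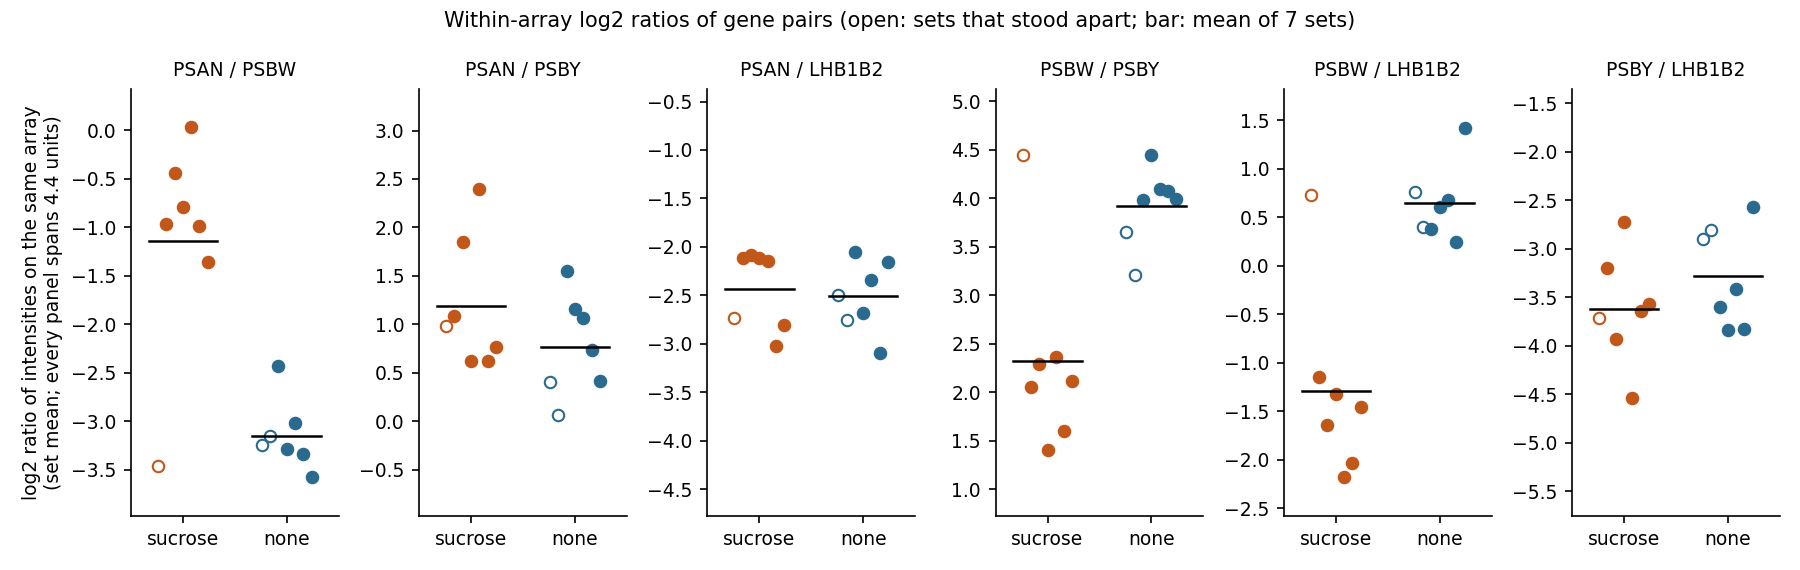
Log2 ratio of the deposited intensities of 2 genes on the same array (y axis, set means, each panel 4.4 units tall) for the 6 gene pairs, with 7 sucrose sets left and 7 no-sucrose sets right. Open circles are the 3 sets that stood apart and bars are means. In the 3 panels that hold PSBW, sucrose sets 2 to 7 are separate from all no-sucrose sets and sucrose set 1 lies with the no-sucrose sets; in the other panels the media overlap.

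The members differed in how their signal varied. Of the variation of PSBW over the 28 arrays (sums of squares of normalized log2 signals), 61.7% lay between the media, 36.3% between sets of a medium and 2.01% between the arrays of a set. For PSAN the parts were 52.9%, 41.9% and 5.23%, and for LHB1B2 31.3%, 57.5% and 11.2%. For PSBY only 14.9% lay between the media and 80.6% between sets. The SD between the arrays of a set was similar for PSAN, PSBY and LHB1B2, at 0.149, 0.148 and 0.148 on the log2 scale, and 0.194 for PSBW. The SD between sets of a medium was 0.322 for PSAN, 0.478 for PSBY, 0.257 for LHB1B2 and 0.629 for PSBW. Over the 11 sets that did not stand apart it was 0.311 for PSAN, 0.448 for PSBY, 0.283 for LHB1B2 and 0.263 for PSBW. The part between the media was then 92.3% for PSBW, 58.2% for PSAN, 37.8% for PSBY and 30.9% for LHB1B2. Leaving out sets that lay away from their group in the same data favours a larger part between media by construction. The same share over all probes was not computed. The large spread of PSBW between sets came mainly from sucrose set 1, at 5.60 against 2.97 to 3.92 for the other sucrose sets. No-sucrose sets 1 and 2, at 5.24 and 4.99, lay in a group with an SD of 0.19.

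**Figure D4:**
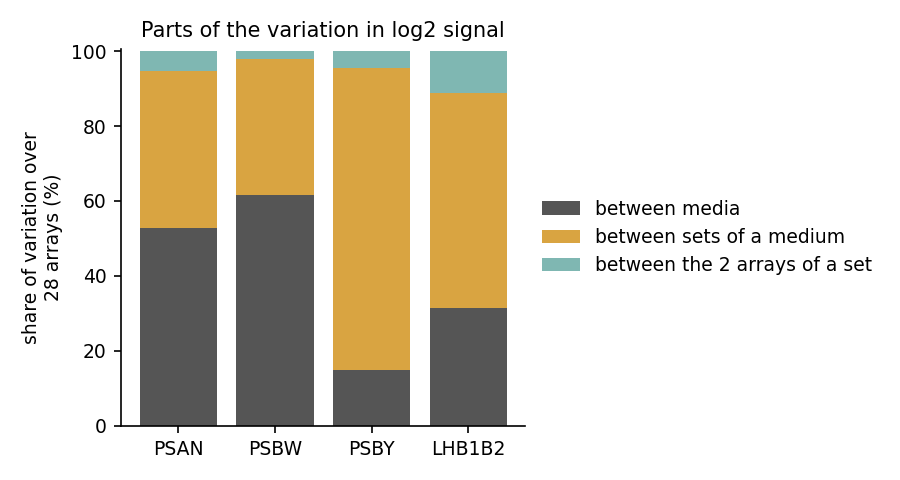
Share of the variation in normalized log2 signal over 28 arrays (y axis, %) that lies between media, between sets of a medium and between the 2 arrays of a set, for each gene. All 14 sets are included, and the part between media is 61.7% for PSBW and 14.9% for PSBY.

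On quantile normalized values the genes did not vary together within a medium in a way that passed the test. Correlations of the 6 pairs over the 7 sets of each medium gave 12 relations, and the lowest p adjusted over them was 0.515 for Pearson's r and 0.794 for Spearman's rho (exact permutation). That lowest value belonged to PSAN and PSBW over the sucrose sets, with r = -0.743 (exact permutation p = 0.0429) and rho = -0.536 (exact permutation p = 0.236). Without the 2 sets farthest from the median of PSAN r was -0.154, and without sucrose set 1 it was -0.28, so the relation rested on those sets. The outcome is tied to that scaling. With each array centred on its median, r over the no-sucrose sets was between 0.836 and 0.944 for the 6 pairs. That centring takes the same array median from both genes, and the median ran from 0.182 to 0.432 over these sets. Both signals of a pair thus hold a shared part by construction, and these r are not read as the genes varying together. Over the sucrose sets it ran from -0.85 to 0.743. The median-centred correlations were not tested.

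The genes whose set-to-set pattern was most like that of each member were taken from the 330 other genes with a probe of their own and a mean signal above the median. The measure was Pearson's r of deviations from the medium's mean over the 14 sets, a description in which all probes share the arrays. An r above 0.8 was reached by 14 of the 330 genes for PSBW, 1 for PSAN, 2 for PSBY and 0 for LHB1B2. The genes named for PSBW are therefore not the only ones so alike. The most alike to PSBW were AT4G29890 (r = 0.932), AT1G16080 (0.916) and AT1G24360 (0.883). Without the 3 sets that stood apart these fell to 0.874, 0.256 and 0.282, so the likeness of AT1G16080 and AT1G24360 rested on those sets. PSAN was most like AT3G26630 (r = 0.894), AT2G46630 (0.776) and AT5G06010 (0.761), at 0.893, 0.726 and 0.777 without those sets. PSBY was most like AT2G44530 (r = 0.963), NTRC (0.853), a thioredoxin reductase gene of the chloroplast, and AT1G79480 (0.762), at 0.96, 0.805 and 0.763 without them. LHB1B2 was most like CCL (r = 0.699), AT1G32730 (0.666) and AT5G66780 (0.637), at 0.876, 0.714 and 0.754 without them. No other member was among the candidates, and over the same 14 sets the r between members ran from -0.569 to 0.372. Without the 3 sets it ran from -0.427 to 0.509, and the r of PSBW and PSBY turned to 0.509 against -0.129 over all sets.

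Few other genes of the light reactions could be read. Of 71 listed genes of the photosystems, the antenna, electron transport, ATP synthase and their regulation, 5 had a probe of their own, which are the 4 members and PSB27, and 7 lay only on probes of several genes. Over these 5, 1 rose, 1 fell and 3 did not pass, where 17.6% of all probes rose and 12.4% fell. Their median log2 fold change was 0.35, against 0.00 over all probes and 0.28 over the brightest 5%, to which the members belong. PSB27 encodes a lumen protein that takes part in the assembly and repair of photosystem II. Its deposited intensity had a lowest value of 0.253, a median of 1.53 and a highest value of 3.29 on sucrose, and a lowest value of 0.35, a median of 2.68 and a highest value of 6.15 without it. Its normalized log2 signal averaged 0.39 ± 1.12 on sucrose and 0.82 ± 1.72 without it (SD, n = 7 sets each). Its change of -0.43 ± 0.75 (SE, log2 scale) was not called (limma adjusted p = 0.716), and the 95% confidence interval, from -2.06 to 1.21, covers the estimates of all 4 members. Leaving out 1 set moved it from -0.92 (without no-sucrose set 7) to -0.13 (without no-sucrose set 3), and with median centring it was -0.003. Without the 3 sets that stood apart it was -0.63 (limma adjusted p = 0.617). None of 20 marker genes of root, seed and flower had a probe of its own, so the tissue could not be checked.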

How the data were processed

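The table the authors deposited holds linear intensities, 1 for each probe on each array. Not given in the sources used here are the scanner, the background correction, the scaling and a genome build, and no positions are printed. All value columns matched a sample by its accession, and groups and replicate numbers came from the titles. Probe names came from the platform annotation through gene identifiers and the RefSeq table of assembly TAIR10.1; 692 probes had 1 gene, 870 several, and 1877 are unnamed.

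Values were raised to a floor of 0.0483 (5th percentile of positive values), log2 transformed, quantile normalized, and averaged over consecutive arrays. Media were compared with limma 3.58.1 in R 4.3.3 (lmFit and eBayes) over 3439 probes, and gene pairs by exact permutation. Treating consecutive arrays as 1 sample rests on their correlation, not on a label, and the labels name no separate cultures. The p-values therefore cover the spread among these sets alone, and that spread may be technical. The members, the lists and the tests were chosen with earlier results of these data known. Named were the members, measured list genes and, per member, the 3 most alike genes. The limma step was tested on simulated data with independent normal noise and no sets that stood apart. That test does not show how limma handles the sets that stood apart or the scaling between arrays. Precision is limited by the number of sets.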

Additional observations from a re-analysis of the deposited data

Results flagged for a closer look

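By Dixon's test, 6 of the 46 groups of 7 set values examined held a set far from the others, where chance gives about 1 in 20 groups, and the groups are not independent. In all 6 that set was sucrose set 1. Its log2 signal was the highest of the sucrose sets for PSBW, at 5.60 against 2.97 to 3.92 (gap over range 0.642). The same held for AT1G16080, at 2.65 against -1.77 to -0.74 (0.768), and for AT1G24360, at 0.00 against -2.74 to -1.60 (0.583), which were named for their likeness to PSBW. The log2 ratio of PSAN to PSBW in that set was the lowest, at -3.46 against -1.35 to 0.03 (0.603). The ratios of PSBW to PSBY, at 4.44 against 1.41 to 2.36 (0.686), and to LHB1B2, at 0.73 against -2.18 to -1.15 (0.647), were the highest. All 6 come from the same 2 arrays, and 4 of them read PSBW itself. AT1G16080 and AT1G24360 were picked for likeness to PSBW over sets that include sucrose set 1. The 6 are therefore not separate observations, and their count cannot be read against the rate of 1 in 20.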

How the results depend on the processing

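No member changed direction under any of the 12 settings or the 14 fits that each left out a set. PSBW stayed called in all of them, with log2 fold changes from -1.96 to -0.83 and limma adjusted p from 5.72e-06 to 0.0442. PSAN lost its call with arrays centred by blocks of 48 spots (0.49) and stayed called otherwise. PSBY gained a call with array weights (0.55) and with block centring (0.93), and LHB1B2 with median centring (1.10) and with 28 arrays as separate samples (0.35); the cause was not tested. Leaving out each set in turn gave 0.25 to 0.40 for LHB1B2, called only without sucrose set 1 (0.385, limma adjusted p = 0.0454). The 1033 probes called became 1710 with 28 arrays as separate samples, 1842 with array weights and 1657 without the 3 sets that stood apart. With the replicate block by set number 416 were called and no member's call changed. Deviations of same-numbered sets from their medium's mean correlated at -0.516 (set 1) to 0.128, so no pairing by number was seen. Whether the numbers pair the samples is not known. In the replicate block test of ratios (sign flips) the PSBW ratios kept the same changes of 2.01 (PSAN over PSBW), -1.60 (over PSBY) and -1.94 (over LHB1B2). Their calls were lost, at a sign-flip p of 0.0625 after adjustment over the 6 pairs. The smallest sign-flip p the design allows, before any adjustment, is 0.0156. The ratio of PSBY to LHB1B2 turned to 0.03 with quantile normalized values, that of PSAN to LHB1B2 to 0.319, and leaving out each set moved the second between -0.018, without no-sucrose set 6, and 0.178.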

Other observations

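The correlations between members within a medium depended on the scaling, though not for every pair in both media. Median centring takes the same array value from both genes, so an r after it holds a part shared by construction. Over the 7 no-sucrose sets, the r of PSBW and PSBY was -0.356 after quantile normalization, 0.628 as deposited and 0.944 after median centring. For PSAN and PSBW over the same sets these were -0.375, 0.314 and 0.852. Over the sucrose sets the same pairs moved less. There r was -0.107, -0.078 and -0.145 for PSBW and PSBY, and -0.743, -0.671 and -0.85 for PSAN and PSBW. The r of PSAN and LHB1B2 did move over the sucrose sets, at 0.073, 0.387 and 0.743.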
